A study of Mus musculus with 18 samples.

Results

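N-linked glycosylation is the attachment of a preassembled sugar chain to asparagine residues of proteins that enter the endoplasmic reticulum (ER). The chain is built on the lipid dolichol, first on the cytosolic face of the ER membrane and then in the lumen. The oligosaccharyltransferase (OST) complex moves it to the nascent protein, ER glucosidases and a folding sensor then trim and check it, and Golgi mannosidases and glycosyltransferases convert it to the complex forms carried by integrins, collagens and growth factor receptors of fibroblasts. The genes described here are 31 of the 22019 genes of the table, chosen by symbol to cover these steps in order. They comprise 6 cytosolic and 7 lumenal enzymes of sugar chain assembly, 9 OST subunits, 3 enzymes of glucose trimming and refolding, and 6 enzymes of mannose trimming and Golgi processing. They were proposed because the annotation term for N-glycosylation was lower in SUN1L cells on 308 kPa, so the values of that comparison are given below as a description.

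The libraries came from mouse NIH 3T3 fibroblasts, an established line, carrying a doxycycline-inducible retroviral construct. SUN1L is an HA-tagged SUN1 lumenal domain with a signal sequence and an ER retrieval sequence, and acts as a dominant negative on the LINC complex, which couples the nucleus to the cytoskeleton. The control construct, KDEL, holds GFP in its place, so both products are retained in the ER lumen. Every group received doxycycline at 1 µg/ml for 48 hr, and cells grew on fibronectin-coated polyacrylamide gels of 1 kPa or 308 kPa. There were 3 libraries each of KDEL cells on 1 kPa, SUN1L cells on 1 kPa, KDEL cells on 308 kPa and SUN1L cells on 308 kPa. KDEL cells on 308 kPa were also exposed for 48 hr to the ROCK inhibitor Y27632 (Y27) at 25 µM in 3 libraries, or to the myosin II inhibitor blebbistatin at 10 µM in 2. Library 34 carried labels that conflict on its vector and inhibitor and entered no group. Both lines were selected with puromycin, and the KDEL line was enriched further by fluorescence sorting, so differences between the lines cannot be told apart from effects of the constructs.

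The construct and the cell type were checked on the same table. Sun1 lay between 2785 and 3799 in the 11 KDEL libraries and between 38452 and 82617 in the 6 SUN1L libraries, with no overlap. All 10 fibroblast markers had a median signal above 100, whereas 5 of 7 epithelial and 4 of 6 leukocyte markers had a median under 10, including Epcam, Ptprc and Cd3e. The others of these lists had medians of 149 (Cdh1), 131 (Krt14), 145 (Cd68) and 85.0 (Csf1r). Of 5 endothelial markers 1, Kdr, had a median under 10, and Tek had a median of 531 and reached 3928. Libraries 3 (SUN1L, 1 kPa), 7 (SUN1L, 308 kPa) and 8 (KDEL, 308 kPa) stood apart in 18 mitotic genes, whose mean log2(signal + 1) was 8.65, 8.92 and 9.25 there and 11.6 to 12.3 in the other 14 assigned libraries. Counts and medians that rest on these libraries, and single genes whose value depends on them by more than 1.5 times, are given with and without them in the main comparisons. In bulk RNA of this kind, fewer cells with a transcript and less transcript per cell cannot be told apart.

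All 31 genes were expressed well above the lowest deposited value of 1, and all 31 passed the filter on low values. Their mean signals ranked from the 42.6th to the 97.8th percentile of the 15967 genes tested, and 10 of them were in the top 10%. Corrected for length, as signal per kb of the longest annotated transcript, the OST subunits Rpn2 (4924), Rpn1 (3420) and Ddost (2837) and the catalytic glucosidase II subunit Ganab (2954) were the most abundant. Stt3a and Stt3b, the alternative catalytic subunits of OST, stood at 2672 and 2408 per kb. The assembly enzymes were scarcer, from 159 per kb for the lumenal mannosyltransferase Alg12 and 171 for Alg13 to 674 for Alg3, except Alg10b, which adds the last glucose, at 1570. The ratio of the highest to the lowest of the 17 libraries ran from 1.35 for Ganab to 2.52 for Alg14. The median SD of log2 signal over 17 libraries was 0.22, against 0.31 for all genes tested, which were not matched for level.

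**Figure D1:**
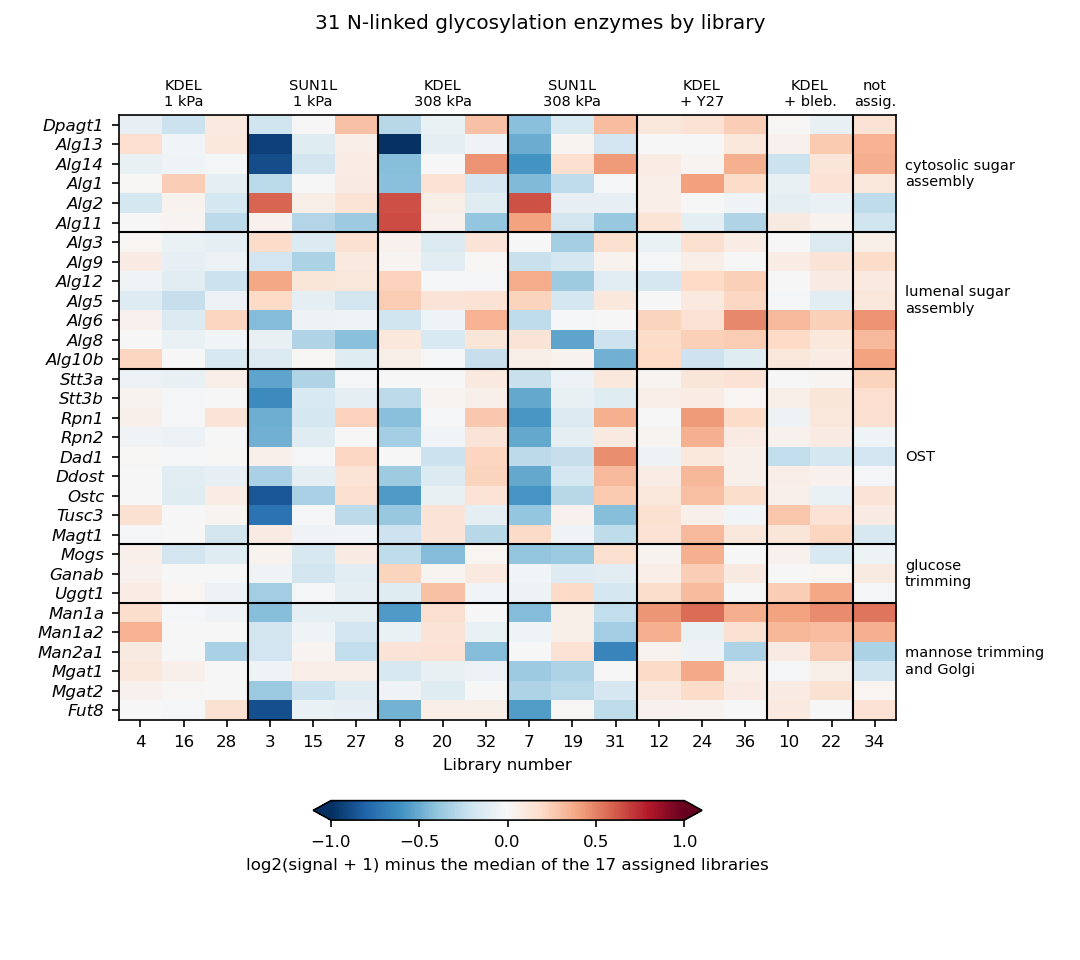
Heat map of the 31 genes (rows, grouped by role) in 18 libraries (columns, grouped by condition), as log2(signal + 1) minus the median of the 17 assigned libraries, with values beyond the scale drawn in the end colours. Libraries 3, 7 and 8 are mostly blue, and the libraries with an inhibitor mostly red, with Man1a the reddest row there.

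Promoter sequences were searched for sites of ER stress factors, of TEAD factors and of general promoter factors, to see what the genes shared beyond their role. RefSeq promoter windows of GRCm38.p6 were found for 25 of the 31 genes, and the 250 bases before the start were read on both strands, with a gene counted once over all its windows. The genes with no window were Dpagt1, Alg2, Alg11, Ostc, Tusc3 and Man1a2. The ER stress element, which is CCAAT and CCACG with 9 bases of any kind between them, was present in 1 of 25 genes, Alg12, and in 0.13% of 27025 genes. Its variant, ATTGG and CCACG with 1 base between them, and the XBP1 and ATF6 site TGACGTGG were in 0 of 25, against 0.037% and 0.603% of all genes. The GC box GGGCGG occurred in 19 of 25 against 35.4% of all genes, the CCAAT box, which the ER stress element contains, in 14 of 25 against 37.5%, and the TEAD letters GGAATG in 4 of 25 against 14.4%. A match is a description of letters and not a site in use. The Alg12 window, shown because Alg12 is among the few genes higher in SUN1L cells on soft gel, lies 220 to 202 bases before the start at chr15:88819514-88819543 on the minus strand, and the 4 windows with TEAD letters are shown because TEAD factors respond to substrate rigidity. Capitals mark the motif, written 5′ to 3′ on the strand of the gene.
Alg12: gtggaCCAATTGAGGCTCGCCACGagaagc
Alg13: ctctcccggacgCATTCCcaaaggcagcgt
Stt3b: ggcgcacgccgcCATTCCggccccgcccct
Rpn2: gacctgctcggaGGAATGgcgccgccgggt
Mgat2: acctgagcgacgGGAATGcgaaccaataag
The TEAD windows lie at chrX:144317896-144317925 on the plus strand for Alg13, chr9:115310581-115310610 on the minus strand for Stt3b, chr2:157279308-157279337 on the plus strand for Rpn2 and chr12:69184065-69184094 on the plus strand for Mgat2. In Alg13 and Stt3b the motif is on the opposite strand to the gene. The Alg13 and Rpn2 windows precede a RefSeq start that lies further in than the deposited gene starts, 144317812 and 157279017.

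On the soft gel, SUN1L and KDEL cells were compared to ask how disruption of the LINC complex bore on the pathway. These libraries were outside the comparison that chose the genes. Earlier results of these data were known at that choice, so independence from it is not established. The errors come from a fit of the 12 libraries without inhibitor, which includes those on 308 kPa. Most of the genes were slightly lower in SUN1L cells: 23 of 31 had a lower mean, against 51.8% of all genes tested, and their median log2 fold change was -0.13, against -0.01 for all genes. Without libraries 3, 7 and 8 it was 22 of 31 and -0.06, and under quantile normalisation 19 of 31 and -0.07. No gene changed by the test. With limma over 15967 genes and a call at an adjusted p under 0.05 and at least 2-fold, 0 of 31 were called, where 0.0877% of all genes were. The smallest adjusted p from limma was 0.93, and 1 of 31, Mgat2, had an unadjusted p under 0.05, against 4.52% of all genes tested. The 95% intervals of 29 of the 31 genes excluded a 2-fold difference in either direction, the exceptions being Alg13 and Alg14, the partners that add the second N-acetylglucosamine.

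Mgat2, the Golgi enzyme that starts the second branch of a complex sugar chain, had signals of 3799, 3710 and 3683 in KDEL cells and 2853, 3167 and 3391 in SUN1L cells on 1 kPa. The groups did not overlap. The difference was -0.25 on the log2 scale with an SE of 0.10 (n = 3 and 3, unadjusted p = 0.024 and adjusted p = 0.93 with limma), and -0.19 without libraries 3, 7 and 8. Fut8, which adds the core fucose, stood at 1121, 1115 and 1249 in KDEL cells and at 610, 1071 and 1060 in SUN1L cells. Library 3 lay far below the other SUN1L libraries, and the log2 difference of -0.39 was -0.12 without the libraries that stood apart. All 6 Golgi and mannose-trimming genes had lower means in SUN1L cells, with a median log2 fold change of -0.25, against 5 of 6 and -0.13 without libraries 3, 7 and 8, when Mgat1 was at 0.013. Man1a2, a Golgi mannosidase, had 3997, 3142 and 3154 against 2764, 3057 and 2746, and its close relative Man1a 2182, 1919 and 1883 against 1435, 1814 and 1809. Neither pair of groups overlapped, and without libraries 3, 7 and 8 the log2 difference went from -0.26 to -0.23 for Man1a2 and from -0.25 to -0.14 for Man1a.

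Among the OST subunits 7 of 9 had lower means in SUN1L cells on this gel, and their median log2 fold change was -0.20. The median rested on library 3: without libraries 3, 7 and 8 it was -0.028, with 6 of 9 lower. Tusc3, a thiol-exchanging subunit of the STT3B complex, had signals of 1966, 1774 and 1811 in KDEL cells and 1065, 1757 and 1481 in SUN1L cells, a log2 difference of -0.40 with an SE of 0.20, which was -0.20 without libraries 3, 7 and 8. Its alternative partner Magt1 showed the opposite sign, with 5008, 5081 and 4472 against 5392, 4956 and 4977 and a log2 difference of 0.07. The log2 ratio of Tusc3 to Magt1 was -1.39 ± 0.11 (SD, n = 3) in KDEL cells and -1.86 ± 0.43 in SUN1L cells, and the libraries overlapped. The catalytic subunits kept nearly the same ratio, with a log2 ratio of Stt3a to Stt3b of -0.01 ± 0.08 in KDEL cells and 0.04 ± 0.14 in SUN1L cells (SD, n = 3 each). Stt3b had 10900, 10464 and 10611 against 6819, 9527 and 9917, a log2 difference of -0.30 that was -0.13 without the libraries that stood apart, and Stt3a 10325, 10219 and 11253 against 7469, 8723 and 10680. The most abundant subunit, Rpn2, was at 13596, 13363 and 13898 in KDEL cells and at 9950, 12803 and 13937 in SUN1L cells, so that library 3 was the lowest and the groups overlapped.

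The assembly enzymes went both ways. Alg2, the mannosyltransferase that adds the branching mannoses, was higher in SUN1L cells on 1 kPa, with 1036, 1202 and 1038 in KDEL cells and 1752, 1219 and 1287 in SUN1L cells, a log2 difference of 0.36 with an SE of 0.25, which was 0.20 without libraries 3, 7 and 8. Alg12 stood at 316, 302 and 279 against 426, 353 and 352, a difference of 0.33 with an SE of 0.20. These were the only genes of the 31 with every SUN1L library above every KDEL library, 2 of 31 where 6.68% of all genes tested were so. Alg13 had the largest difference, -0.41 with an SE of 0.30, from 851, 741 and 812 in KDEL cells and 395, 693 and 791 in SUN1L cells, which became -0.11 without libraries 3, 7 and 8. The opposite pattern, every SUN1L library below every KDEL library, held for 8 of 31, namely Alg8, Stt3b, Tusc3, Ganab, Man1a, Man1a2, Mgat2 and Fut8, against 7.89% of all genes. Without libraries 3, 7 and 8 it held for 9 of 31, with 10.3% of all genes, where only 2 SUN1L libraries remain on this gel.

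The 3 glucose-trimming genes showed log2 differences of 0.07 for Mogs, which removes the outermost glucose, -0.12 for Ganab and -0.16 for Uggt1, the folding sensor that puts a glucose back. Without libraries 3, 7 and 8 they were 0.046, -0.16 and -0.062. Ganab, the highest of them, had 11602, 11220 and 11280 in KDEL cells and 10982, 9932 and 10487 in SUN1L cells. The highest cytosolic enzyme, Alg11, had 1413, 1443 and 1176 against 1453, 1152 and 1096, and Alg10b, the highest lumenal one, 6952, 5988 and 5348 against 5402, 6050 and 5518. Man2a1, the highest Golgi gene and the mannosidase that acts between Mgat1 and Mgat2, had 10965, 10313 and 8244 against 9059, 10517 and 8722. These last 3 pairs of groups overlapped.

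**Figure D2:**
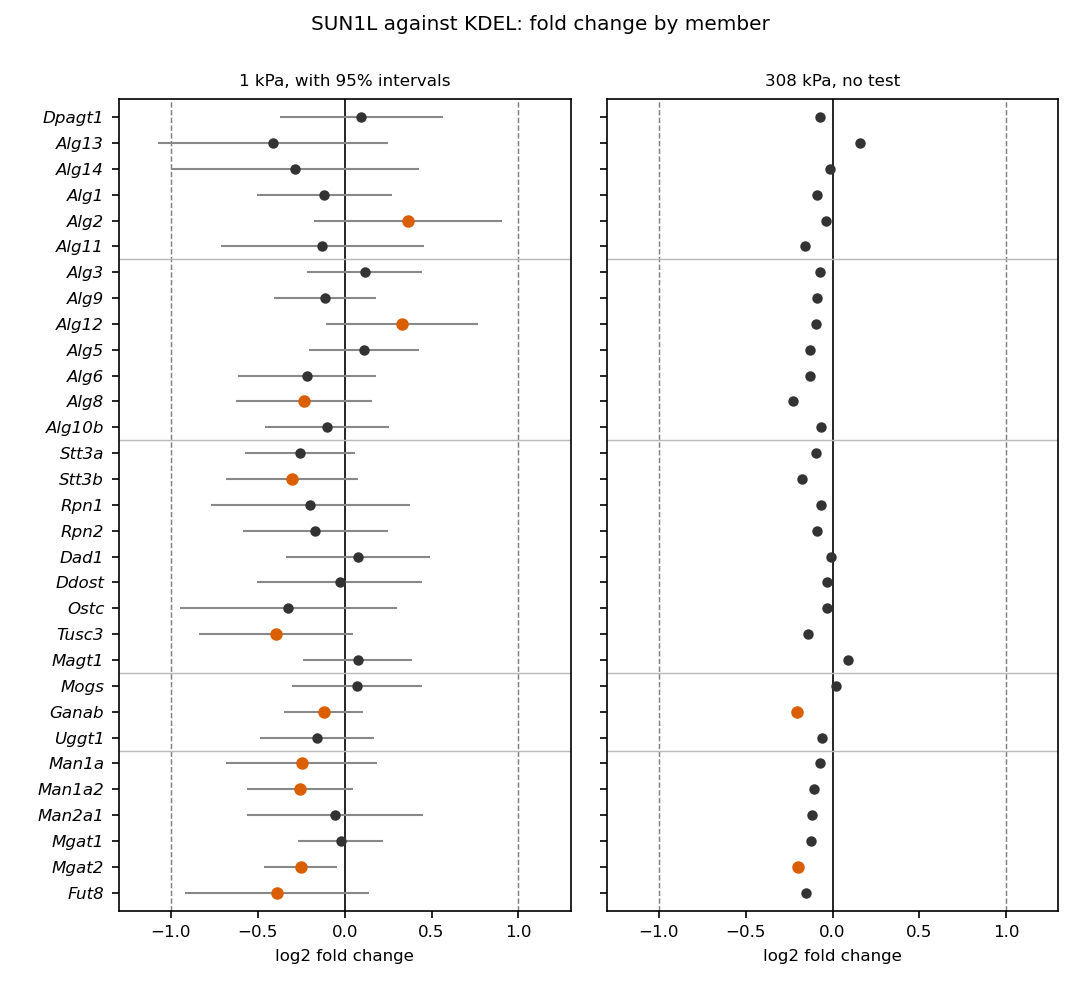
Log2 fold change of SUN1L against KDEL cells for each gene on 1 kPa (left, bars are 95% intervals from limma, n = 3 and 3) and on 308 kPa (right, the comparison that chose the genes, drawn without intervals). Orange points are genes whose groups did not overlap and dashed lines mark 2-fold, and on 1 kPa 10 of 31 genes are orange, 8 of them lower.

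The lower values on the soft gel moved with library 3. Comparing libraries of neighbouring numbers, 24 of 31 genes were lower in library 3 than in library 4, with a median log2 difference of -0.32, 20 of 31 in library 15 than in 16 (-0.06), and 14 of 31 in library 27 than in 28 (0.05). Without library 3 the median over the 31 genes was -0.06, and without library 27 it was -0.19. Libraries 3, 7 and 8, which belong to 3 different groups, lay below all 14 other assigned libraries in 11 of 31 genes, against 13.1% of all genes tested. These were Alg13, Alg14, Alg1, Alg6, Stt3b, Rpn1, Rpn2, Ddost, Ostc, Man1a and Fut8. Alg2 was the gene of the 31 in which they lay above all others (8.93% of all genes), at 1752, 1818 and 1831 against a highest value of 1287 elsewhere. All 18 mitotic genes had a lower mean in SUN1L than in KDEL cells on 1 kPa (median -1.39 on the log2 scale). Without libraries 3, 7 and 8 all 18 were still lower, with a median of -0.31. Their summed signal ran from 10051 to 87192 in SUN1L cells and from 87367 to 108949 in KDEL cells. Whether the low mitotic signal has a part in these values was not tested.

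**Figure D3:**
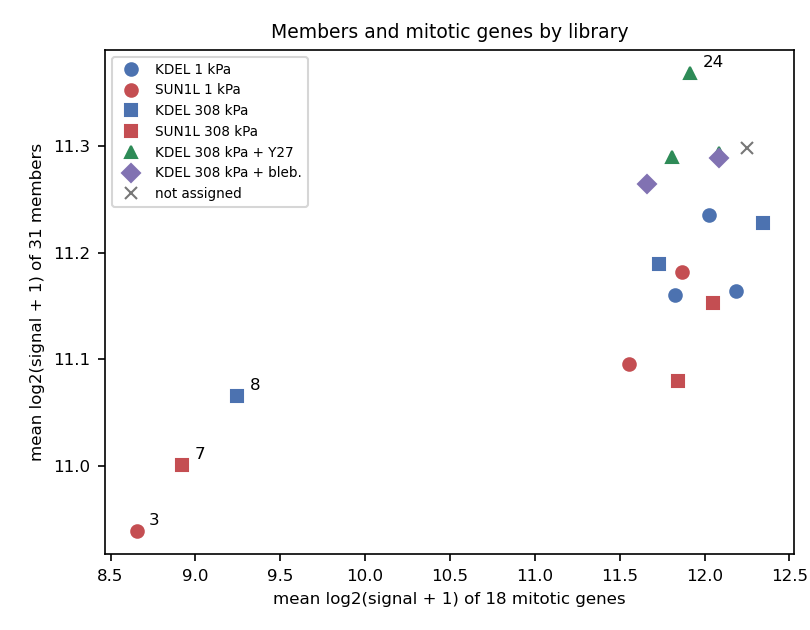
Mean log2(signal + 1) of the 31 genes (vertical) against that of 18 mitotic genes (horizontal), 1 point per library. Libraries 3, 7 and 8 lie at the lower left, and library 24, with Y27, has the highest mean of the 31 genes, 11.4.

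On the stiff gel, the comparison that chose the genes, 28 of 31 had a lower mean in SUN1L cells, against 56.7% of all genes tested. The median log2 fold change was -0.09, against -0.03 for all genes, and ranged from -0.04 without library 7 to -0.15 without library 8 and -0.17 without library 31. The differences were small. The largest falls of the means were in Alg8 (-0.23), which adds the next-to-last glucose, Ganab (-0.21), Mgat2 (-0.20) and Stt3b (-0.17), and the largest rises of the means were in Alg13 (0.16) and Magt1 (0.09). The direction of these rises rested on the libraries that stood apart, since without libraries 3, 7 and 8 they were -0.013 and -0.070, while the falls were -0.35, -0.19, -0.16 and -0.14. Ganab had 13152, 11491 and 12086 in KDEL cells and 11054, 10309 and 10417 in SUN1L cells. Mgat2 had 3599, 3382 and 3689 against 2979, 3056 and 3276. These 2 were the genes whose groups did not overlap, both with SUN1L lower (2.34% of all genes tested), and 0 of 31 had every SUN1L library higher (1.96%). Without libraries 3, 7 and 8, and so with fewer libraries in each group, 7 of 31 were lower (10.3%) and 0 higher (8.39%). Alg8 had 608, 507 and 614 against 615, 392 and 487, and Stt3b 8858, 10807 and 10979 against 7460, 10053 and 9758. Alg13, with 380, 705 and 737 against 535, 770 and 663, and Magt1, with 4392, 5564 and 4188 against 5815, 4952 and 4270, overlapped.

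The OST subunits on the stiff gel differed little between the lines. Stt3a had 10742, 10744 and 11493 in KDEL cells and 9189, 10294 and 11566 in SUN1L cells, and Rpn2 10967, 13651 and 15192 against 9762, 13081 and 14806. In both the groups overlapped, and the log2 ratio of Stt3a to Stt3b was 0.11 ± 0.15 (SD, n = 3) in KDEL and 0.19 ± 0.14 in SUN1L cells. Tusc3 had 1362, 1935 and 1663 against 1358, 1823 and 1320, and Dad1 1678, 1444 and 1948 against 1401, 1432 and 2318. The ratio of Tusc3 to Magt1 was -1.51 ± 0.18 in KDEL and -1.74 ± 0.33 in SUN1L cells, within the spread of the libraries.

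Of the abundant assembly and Golgi genes, Alg11 had 2217, 1458 and 1083 in KDEL cells and 1870, 1247 and 1084 in SUN1L cells on 308 kPa, with libraries 8 and 7 the highest of their groups. Alg10b had 6231, 5899 and 5112 against 6223, 6150 and 4299, and Man2a1 11268, 11413 and 7664 against 10328, 11407 and 6530, so the spread within each group was wider than the difference between them. Alg5 had 948, 716 and 870 in SUN1L cells, below or within its KDEL values. Man1a had 1303, 2154 and 1931 in KDEL cells and 1430, 2011 and 1627 in SUN1L cells, and Man1a2 3008, 3426 and 2998 against 3049, 3276 and 2472. The log2 ratio of Man1a to Man1a2 was -0.84 ± 0.32 and -0.80 ± 0.26 (SD, n = 3 each).

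The annotation term itself was examined gene by gene. Its 24 genes in the table hold 7 of the 31, and 22 were tested. On 308 kPa 17 of the 22 had a lower mean in SUN1L cells, and their median difference was -0.11 on the log2 scale. The gene of the term with the largest difference was Serpina1a, a secreted glycoprotein and no enzyme of the pathway, which lay at 386 to 424 in KDEL cells and 65.3 to 99.4 in SUN1L cells on that gel. It has near-identical copies between which reads can be divided, and it was named after its values were seen. In the library that entered no group, Serpina1a was at 63.1 and Sun1 at 3656, within the Sun1 range of the KDEL libraries. The source name of that library gives an empty vector, and its labels conflict. Whether the Serpina1a difference comes from the constructs or from the lines was not tested. The 7 of the 31 that carry the term, Alg12, Alg6, Alg8, Ddost, Dpagt1, Mgat2 and Rpn2, had a median of -0.09. Other enzymes that carry it went both ways. They ran from 0.48 for Mgat3 and 0.28 for St3gal1, both Golgi glycosyltransferases, to -0.25 for Entpd5, an ER nucleotidase. A second annotation term for N-glycosylation held 13 genes, 6 of them among the 31. On 308 kPa 9 of the 13 were lower in SUN1L cells, with a median of -0.08. Its 7 genes outside the 31 had a median of 0.02, with 3 lower and 4 higher.

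Rigidity was compared within each line, with the 308 kPa libraries shared with the comparison that chose the genes. In KDEL cells 19 of 31 had a lower mean on 308 kPa than on 1 kPa (median log2 fold change -0.02), and in SUN1L cells 14 of 31 (0.02), where 52.4% of all genes were lower in either line. These counts and signs turned with the libraries that stood apart: without libraries 3, 7 and 8 the counts were 13 of 31 (0.032) and 17 of 31 (-0.0073). Under quantile normalisation they were 15 and 16 of 31. No gene of the 31 was called by limma in either, as was 0% of all genes. Alg5, which makes the glucose donor of the lumenal steps, had 740, 691 and 778 on 1 kPa and 968, 887 and 896 on 308 kPa in KDEL cells, with no overlap and a log2 difference of 0.32 with an SE of 0.14 (unadjusted p = 0.050 and adjusted p = 1 with limma). Mgat1, which starts the first branch and opens the way to complex chains, had 4444, 4247 and 4091 on 1 kPa and 3673, 3890 and 3946 on 308 kPa in KDEL cells. In SUN1L cells it had 3984, 4299 and 4294 against 3198, 3311 and 4103, a log2 difference of -0.25 with an SE of 0.11 (unadjusted p = 0.043 and adjusted p = 1 with limma). These were the genes of the 31 with an unadjusted p under 0.05, 1 in each line, against 1.37% and 1.93% of all genes tested. In KDEL cells the groups did not overlap for Alg12 and Alg5, higher on 308 kPa (2.14% of all genes), and for Alg13 and Mgat1, lower (2.66%). In SUN1L cells they overlapped for all 31, where 1.7% of all genes were higher and 3.09% lower without overlap. Without libraries 3, 7 and 8, and so with fewer libraries, 3 of 31 were higher (5.35%) and 2 lower (5.72%) in KDEL cells. In SUN1L cells 2 of 31 were then higher (9.35%) and 5 lower (12.2%). The difference of the SUN1L effects between the gels contains the comparison that chose the genes. It was below 0 for 12 of 31 (50.7% of all genes), but for 20 of 31 without libraries 3, 7 and 8, when the median went from 0.027 to -0.026, and for 16 of 31 under quantile normalisation. It was called for 0 of 31 by limma at a Bonferroni-corrected p under 0.05 (0% of all genes), and 0 of 31 had an unadjusted p under 0.05 (0.883%).

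**Figure D4:**
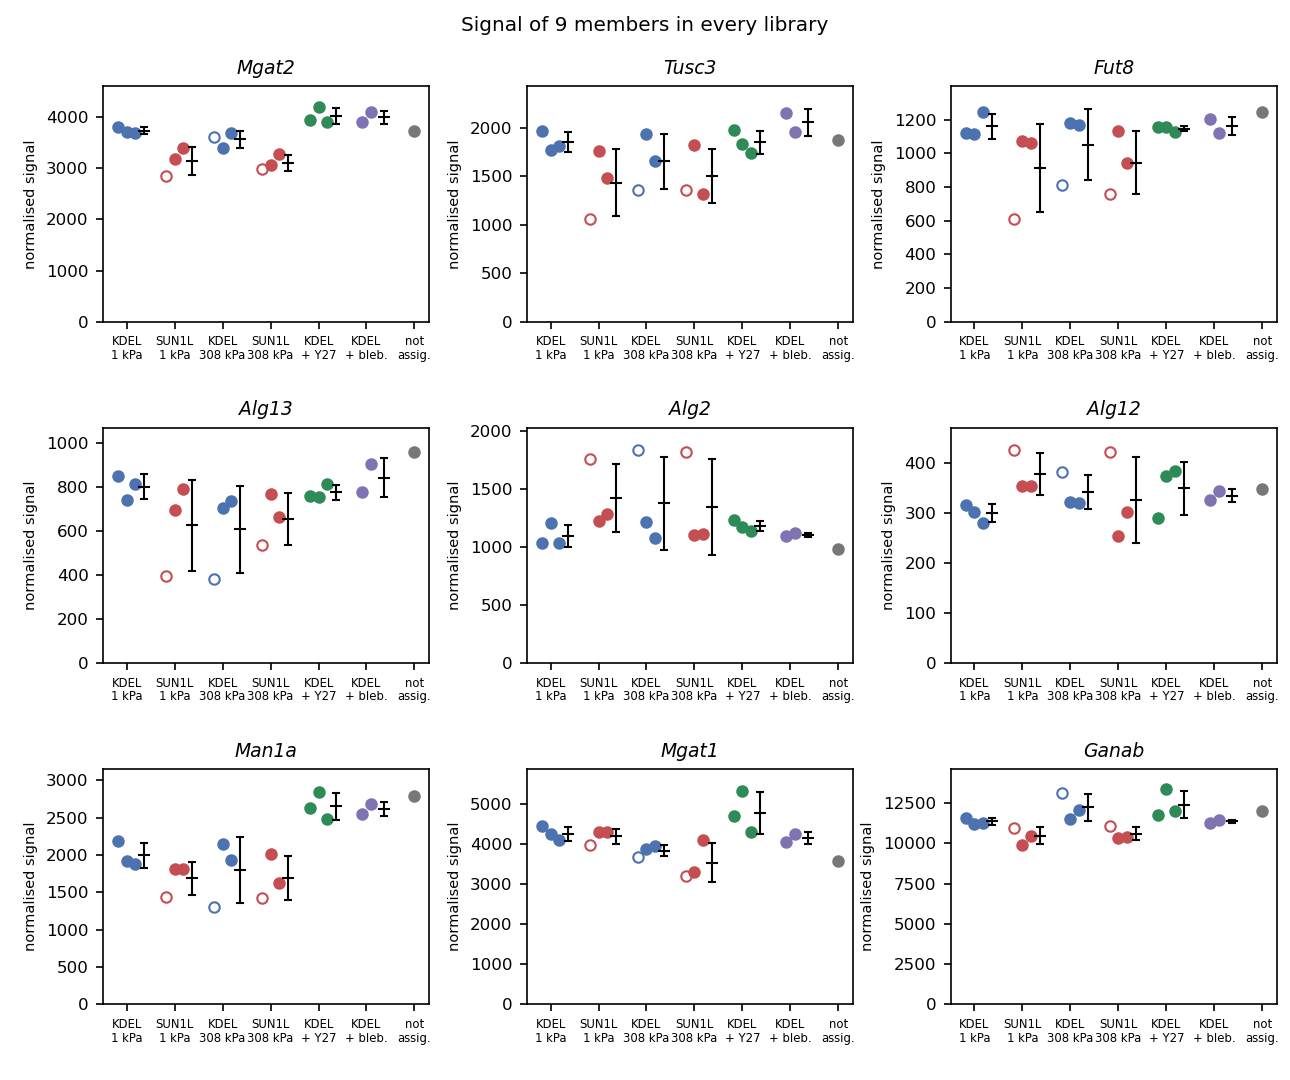
Normalised signal (vertical, linear, from 0) of 9 of the genes in every library by group, with the mean ± SD of each assigned group in black and libraries 3, 7 and 8 as open circles. Man1a lies between 2485 and 2842 in the 5 assigned libraries with an inhibitor and between 1303 and 2182 in the 12 without, and Mgat2 is lower in SUN1L than in KDEL cells on both gels.

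Inhibition of contractility was examined in KDEL cells on 308 kPa, whose untreated libraries are shared with the comparison that chose the genes and include library 8. Most genes were higher with an inhibitor. With Y27, 27 of 31 had a higher mean and the median log2 fold change was 0.15, against 0.01 for all genes tested, of which 47.8% were lower. Under quantile normalisation 20 of 31 were higher with Y27, with a median of 0.11, and without library 8 it was 28 of 31 and 0.081. With blebbistatin 21 of 31 were higher, also with a median of 0.15, where 48.7% of all genes were lower, and without library 8 it was 20 of 31 and 0.057. No gene of the 31 was called by limma with either inhibitor, nor was any of the 15967 genes (0%). Man1a, Mgat1 and Magt1 had an unadjusted p under 0.05 with Y27 and Man1a with blebbistatin, 3 and 1 of 31, against 5.74% and 2.99% of all genes. The smallest adjusted p from limma was 0.80 with Y27 and 1 with blebbistatin.

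Man1a had the largest difference of the 31 with each inhibitor. It encodes a Golgi mannosidase that removes the outer mannoses before the branching enzymes can act, and lies at chr10:53904788-54075796 on the minus strand of GRCm38. Its signal was 1303, 2154 and 1931 in untreated KDEL cells on 308 kPa, 2624, 2842 and 2485 with Y27, and 2547 and 2680 with blebbistatin. Every inhibitor library lay above every untreated one. The log2 differences were 0.59 with an SE of 0.19 for Y27 and 0.57 with an SE of 0.21 for blebbistatin, and 0.38 and 0.36 without library 8. The 5 inhibitor libraries also lay above all 12 libraries without an inhibitor on either gel, which held for 2 of the 31, Man1a and Mgat2, and for 0.507% of all genes tested. Its relative Man1a2 had 3008, 3426 and 2998 without inhibitor, 4012, 3004 and 3491 with Y27, and 3950 and 3884 with blebbistatin. The log2 ratio of Man1a to Man1a2 was -0.84 ± 0.32 (SD, n = 3) without inhibitor, -0.39 ± 0.28 (n = 3) with Y27 and -0.58 ± 0.07 (n = 2) with blebbistatin. It ran from -1.21 to -0.63 without inhibitor and from -0.61 to -0.08 with Y27, which is no overlap but a narrow gap. The untreated ratio of -1.21 was that of library 8, which lowers the untreated mean.

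Mgat1 had 3673, 3890 and 3946 without inhibitor, 4694, 5325 and 4303 with Y27, and 4051 and 4263 with blebbistatin, with log2 differences of 0.31 (SE 0.10) and 0.12 (SE 0.11). Mgat2 had 3937, 4185 and 3902 with Y27 and 3900 and 4084 with blebbistatin, all above its untreated values of 3382 to 3689. Magt1, with 4392, 5564 and 4188, reached 5630, 6362 and 5511 with Y27 and 5520 and 5905 with blebbistatin, and its untreated value of 5564 lay within the range of each inhibitor group. All 9 OST subunits had a higher mean with Y27, with a median of 0.24 that was 0.077 without library 8. The 3 shared subunits Rpn1, Rpn2 and Ddost were at 9196, 12152 and 14842, at 10967, 13651 and 15192, and at 4753, 5532 and 7080 without inhibitor, and at 12304, 16559 and 13943, at 14199, 17795 and 14713, and at 6385, 7655 and 6305 with Y27. Their highest value of all 17 libraries was in each case library 24. Library 24 held the highest value of 11 of the 31 genes, against 5.95% of all genes, and its median of 16 ER chaperones, as a log2 difference from each gene's median over libraries, was 0.31. Without library 24 the OST median with Y27 was 0.15, with 8 of 9 higher. The ER chaperones went from a median of 0.13, with 13 of 16 higher, to 0.034, with 10 of 16 higher. What underlies the values of this library was not tested.

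The catalytic subunits and the remaining abundant genes lay close to their untreated values. Stt3a had 10930, 11694 and 11845 with Y27 and 10716 and 10936 with blebbistatin, and Stt3b 11090, 11164 and 10780 and then 11045 and 11525. Both overlapped the untreated libraries with Y27, whereas both blebbistatin values of Stt3b were above its untreated ones. Tusc3 had 1973, 1837 and 1741 with Y27 (log2 difference 0.18, and 0.043 without library 8), and the log2 ratio of Tusc3 to Magt1 was -1.66 ± 0.14 with Y27 (SD, n = 3) and -1.47 ± 0.16 with blebbistatin (n = 2). Alg13 had 758, 755 and 813 with Y27 and 778 and 904 with blebbistatin, where its untreated values were 380 in library 8, 705 and 737. Its log2 differences of 0.41 and 0.53 were 0.10 and 0.22 without library 8. Alg8 had 639, 663 and 672 and then 646 and 606. Ganab was at 11797, 13368 and 12034 with Y27, Alg11 at 1550, 1330 and 1144, Alg10b at 6886, 5174 and 5498 and Man2a1 at 10563, 9946 and 8341. With blebbistatin Alg11 was at 1505 and 1445, Alg10b at 6461 and 6313 and Man2a1 at 10934 and 12225.

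With Y27 every library was above every untreated one in 5 of 31 genes, Alg13, Alg8, Man1a, Mgat1 and Mgat2 (4.97% of all genes), and below in 0 (3.63%). Without library 8 these counts were 5 of 31 (9.14% of all genes) and 1 (8.55%). With blebbistatin the groups did not overlap for 9 genes that were higher (7.22% of all genes), among them Tusc3 with 2152 and 1960 against 1362, 1935 and 1663. They also did not overlap for 2 that were lower (5.87%). These were Alg5 with 806 and 753 against 968, 887 and 896, and Ganab with 11278 and 11450 against 13152, 11491 and 12086. Without library 8 it was 10 of 31 higher (13.2% of all genes) and 2 lower (13.1%) with blebbistatin. The 18 mitotic genes moved alongside, all 18 with a higher mean with each inhibitor and medians of 0.86 and 0.76, and so did the fibroblast markers, 9 and 10 of 10 with a higher mean and medians of 0.64 and 0.47. The summed signal of the fibroblast markers was 571265 to 726536 without inhibitor, 731732 to 896057 with Y27 and 688697 to 815372 with blebbistatin, and that of the mitotic genes was 14922 to 120996, 85141 to 103523 and 77478 to 105292. Without library 8, 16 of the 18 mitotic genes were lower with each inhibitor, with medians of -0.097 and -0.16. The fibroblast markers were then higher in 9 of 10 with Y27 and 8 of 10 with blebbistatin, with medians of 0.36 and 0.38. The part of the mitotic genes and fibroblast markers in the values of the 31 genes was not tested.

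**Figure D5:**
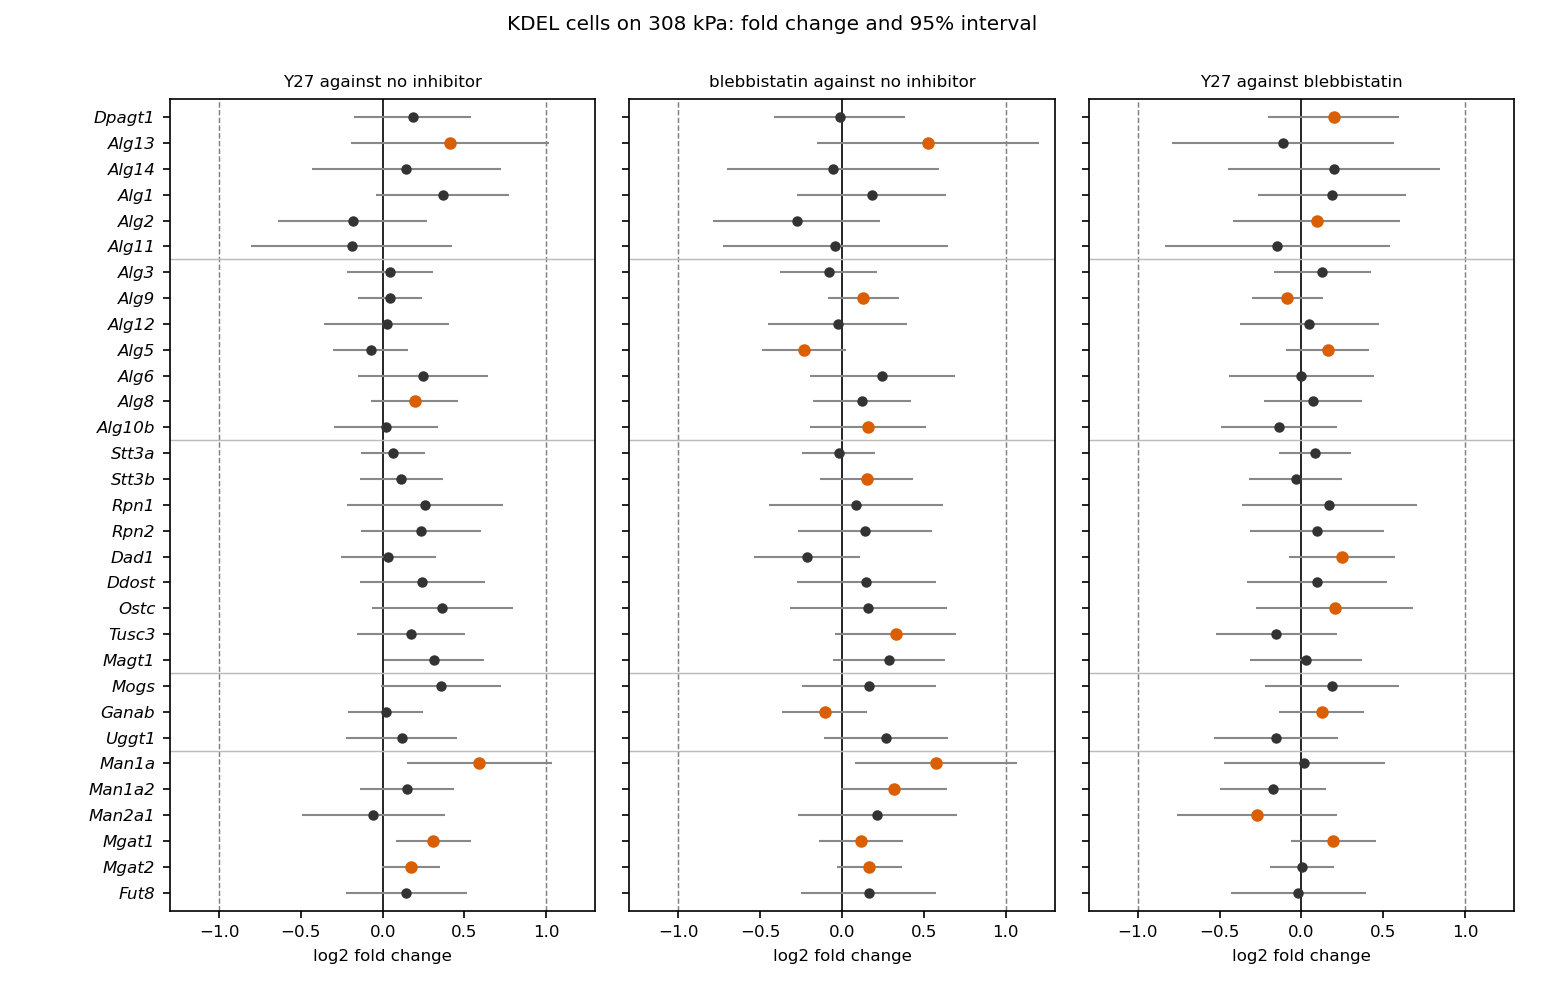
Log2 fold change and 95% interval from limma for each gene in KDEL cells on 308 kPa, for Y27 (n = 3) against no inhibitor (n = 3), blebbistatin (n = 2) against no inhibitor, and Y27 against blebbistatin. Orange points are genes whose groups did not overlap and dashed lines mark 2-fold, and Man1a lies at 0.59 and 0.57 in the left and middle panels and at 0.02 on the right.

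The inhibitors were compared with each other directly. The values are from libraries outside the comparison that chose the genes, while the SEs, p-values and intervals use a spread that the untreated libraries of that comparison share. The 31 genes had a median log2 fold change of 0.07 for Y27 against blebbistatin, with 21 of 31 higher with Y27, where 46.2% of all genes were lower. By limma 0 of 31 were called and 0 of 31 had an unadjusted p under 0.05, against 0% and 2.29% of all genes. All 31 intervals excluded a 2-fold difference, and that of Man1a ran from -0.48 to 0.51. The genes with the smallest p were Dad1, a small shared OST subunit, with 1621, 1808 and 1735 with Y27 and 1411 and 1483 with blebbistatin (log2 difference 0.25, SE 0.14), Mgat1 (0.19, SE 0.11) and Alg5, with 810, 868 and 938 against 806 and 753 (0.16, SE 0.11). With Y27 in 3 libraries and blebbistatin in 2, every Y27 library was above both blebbistatin libraries in 7 of 31 genes (11.4% of all genes) and below in 2 (9.01%). Without library 24 the median of the 31 was 0.0041.

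The share of the summed signal taken by the 31 genes ran from 0.353% in library 3 to 0.435% in library 24. The highest SUN1L library was at 0.386% and the lowest assigned inhibitor library at 0.391%. KDEL libraries without inhibitor lay between 0.376% and 0.398%. The share was 0.385% ± 0.0075 in KDEL and 0.368% ± 0.017 in SUN1L cells on 1 kPa, and 0.386% ± 0.011 and 0.370% ± 0.0073 on 308 kPa (SD, n = 3 each). It was 0.407% ± 0.024 with Y27 (n = 3) and 0.400% ± 0.012 with blebbistatin (n = 2).

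The rest of the pathway and its neighbours in the ER were followed on the soft gel through lists chosen with earlier results known. No list held a called gene. Counts and medians are given first for all libraries and then without libraries 3, 7 and 8. Differences of single genes are given for all libraries only, and the first SUN1L value of each is library 3. Of 10 genes of dolichol supply, 5 were lower in SUN1L cells (median log2 fold change -0.0031), then 6 (-0.044), among them Nus1, a subunit of the dolichol-making prenyltransferase, with 5287, 5011 and 5519 against 3329, 4193 and 4716 (-0.38). Of 13 genes that make sugar nucleotides 10 were lower (-0.18), then 10 (-0.082). The 3 OST subunits outside the 31 were all higher (0.26, then 0.11), with Krtcap2 at 1251, 1229 and 1361 against 2265, 1210 and 1573. Of 13 genes of the calnexin cycle and of ER-associated degradation 8 were lower (-0.10), then 9 (-0.0082), and Ngly1, the cytosolic enzyme that strips sugar chains from retrotranslocated proteins, had 499, 528 and 481 against 342, 400 and 335 (-0.49, unadjusted p = 0.0092 and adjusted p = 0.93 with limma). Of 15 genes of Golgi branching and capping 7 were lower (0.01), then 5 (0.14), with the galactosyltransferase B4galt3 at 736, 774 and 722 against 1131, 884 and 883 (0.37). Of 16 ER chaperones and of 16 translocon genes, 10 and 12 were lower, with medians of -0.05 and -0.02, then 6 and 10, with medians of 0.053 and -0.019.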

How the data were processed

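Polyadenylated RNA was sequenced as paired ends and, per the labels and the study's methods, aligned with TopHat 2.0 to mm9, filtered on quality and duplicates and normalised by trimmed means of M-values in AvadisNGS. The values are normalised signal as the authors deposited them, on a linear scale, not per length, with a lowest value of 1. Gene positions in the table overlapped GRCm38.p6 genes in 99.9% of cases and NCBIM37 genes in 12.1%. The signal summed to between 2.96e+07 and 3.49e+07 per library. Low values fell on whole-read steps in only 48.8% to 54.0% of cases, so read depth was not recovered and no counting interval is given.

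Differences were computed in R 4.3.3 with limma 3.58.1 (mean-variance trend, two-sided) on log2(signal + 1), a scale that understates changes of low genes, over the 15967 of 22019 genes with a signal over 1 in 3 or more assigned libraries. The 12 libraries without inhibitor were fitted together, and the 8 assigned KDEL libraries on 308 kPa together. Calls needed an adjusted p under 0.05 (Benjamini-Hochberg, all genes tested) and at least 2-fold, or for the interaction a Bonferroni-corrected p under 0.05, after the study's limits. The fit was also run on simulated data with independent noise in each library, which does not cover libraries that deviate together. The study calls the libraries of a condition biological replicates.

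The 31 genes and the lists were chosen with earlier results of these data known. All 31 were accounted for by role. Values library by library were given for the highest gene of each role, the 3 with the smallest p on 1 kPa and between inhibitors, the 4 largest falls and 2 largest rises on 308 kPa, the paralogue pairs, and genes singled out after their values were seen (Fut8, Alg2, Alg12, Rpn1 and Ddost). For other lists, up to 3 genes with the largest difference on 1 kPa and a mean signal above 100 could be named. Alternatives were other filters, pseudocounts of 8 and 0.1, quantile normalisation, all 17 libraries in 1 fit, no trend, array weights, a replicate block, libraries left out and other call rules. Leaving out libraries 3, 7 and 8 together was chosen after seeing the data. Promoter windows came from RefSeq, transcript lengths from GENCODE M1.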

Additional observations from a re-analysis of the deposited data

Results flagged for a closer look

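Library 34, whose source name gives an empty vector with Y27 while its inhibitor label gives blebbistatin, entered no comparison; its column is numbered 35 and was matched by its heading. In 7 of the 31 genes its signal was above that of all 17 assigned libraries, which is why these values are given here. No share over all genes was computed beside this count, so it cannot be told apart from a general trait of library 34. Alg13 was at 961 there, Alg9 at 1201, Alg8 at 705 and Alg10b at 7915. Stt3a was at 12549, Stt3b at 11898 and the mannosidase Man1a2 at 4018, against highest assigned values of 11845, 11525 and 4012. Man1a, at 2792, lay among the inhibitor libraries, between 2485 and 2842.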

How the results depend on the processing

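No gene of the 31 was called in any of the 7 tested comparisons under any of the alternatives run. The number of them with an unadjusted p under 0.05 from limma ranged from 0 to 7 on 1 kPa and from 1 to 8 with Y27. The 8 with Y27 were found without library 32, where 2298 of all 15967 genes were also under 0.05, against 917 with all libraries. The smallest adjusted p from limma over the alternatives ranged from 0.19 to 1 on 1 kPa and from 0.27 to 1 with Y27. The median log2 fold change of the 31 genes on 1 kPa was -0.031 without the first run of library numbers (3 to 12), and -0.19 to -0.06 with 1 library left out. With 1 library left out the median ranged from -0.17 (without library 31) to -0.04 on 308 kPa, from -0.11 (without 32) to 0.03 (without 8) for rigidity in KDEL cells, from 0.057 (without 8) to 0.17 with blebbistatin, and from 0.0041 (without 24) to 0.09 between the inhibitors. Without libraries 3, 7 and 8 the blebbistatin median was 0.057. The cause of these moves was not tested. The other 218 alternative medians, over all 8 comparisons, moved by less than 1 SD between replicates. The labels give no shared replicate, but 37 of 40 pairs of libraries in the same run of library numbers deviated together with a correlation over 0.1, the lowest at 0.07. With a replicate block on these runs the median was -0.13 on 1 kPa and -0.09 on 308 kPa. With this block 7 of the 31 had an unadjusted p under 0.05 from limma on 1 kPa, against 2260 of all 15967 genes. No call among the 31 changed. Among all genes, 14 were called on 1 kPa. This count was 59 with array weights, 22 with all 17 libraries in 1 fit, 7 without libraries 3, 7 and 8, 1 without the first run, and 9 without library 16. With 2 or 3 libraries per group, differences under about 2-fold in the most variable genes could not be resolved.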
